A study of Mus musculus with 9 samples.

Results

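Glycolysis and hypoxia-response genes were followed through 3 states of the mouse CD8+ T cell by the RNA the cells were making at the time of labelling. The set holds 40 genes, taken by symbol from 37022 genes with a value. The glycolysis side holds 25 genes, for glucose uptake, glycolysis, lactate and pyruvate handling, glycogen synthase (Gys1) and a gene of the phosphoglucomutase family (Pgm2). The hypoxia side holds 15 genes, for the hypoxia-inducible factor (HIF), its oxygen sensors and genes known to respond to low oxygen. Of the 40, 39 had enough signal in the gene body to be tested. Eno2, the neuron-type enolase, was the exception, with values of 24.8 to 46.9.

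Glycolysis breaks glucose down to pyruvate in the cytosol, and activated T cells turn much of that pyruvate into lactate, which leaves the cell through monocarboxylate transporters. HIF is a pair of proteins, HIF-1α (Hif1a) and ARNT, that binds DNA and switches on glycolytic enzymes, lactate export, Vegfa, Bnip3 and other genes. The prolyl hydroxylases encoded by Egln1 and Egln3 mark HIF-1α for destruction when oxygen is present, so its abundance is set largely at the protein level, which RNA synthesis does not show.

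The 9 libraries were CD8 T cells labelled Acute, Chronic and ChronicMEKi, with 3 libraries each. By the series' design text the names stand for acute stimulation and for chronic stimulation without and with MEK inhibition, MEK being a kinase that passes signals from the T cell receptor to ERK. The strain, the age, the stimulus, its duration, the inhibitor and its dose are not given in the sources used here, nor whether the libraries of a group came from separate animals or cultures, so the p-values measure only the spread between these libraries. New RNA was tagged in the living cells with the uridine analogue 5-ethynyl uridine (0.2 mM, 30 minutes), captured through the tag and sequenced. Values are the deposited signal of a region, scaled here between libraries, and have no unit of reads. Depth in reads is unknown.

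Gene-body totals over the row kept for each gene were alike, at 48601800 to 52216200 per library. A ribosomal RNA-like locus took 19.1 to 22.3% of them in acute, 34.2 to 40.6% in chronic and 29.0 to 36.1% in MEK-inhibited libraries. Totals over all deposited gene-body rows were 149826049 to 152172182 in acute, 120785456 to 129708519 in chronic and 127252603 to 141344373 in MEK-inhibited libraries. Pause-region totals over the rows kept were 4886440 to 5596490, 6782220 to 8489260 and 6836920 to 7499000 in that order. The scaling used here sets the change of the typical gene near 0, so every rise or fall below is relative to that gene. Scaling to library totals instead moves the median gene by -0.49 on the log2 scale between chronic and acute libraries. All 7 markers of CD8+ T cells passed the filter, while 1 of 4 B cell, 2 of 5 myeloid, 1 of 4 dendritic cell and 0 of 2 NK cell markers did, as did Cd4. The summed signal of the CD8+ T cell markers was 23076 to 27056 in acute, 15720 to 16489 in chronic and 19781 to 21801 in MEK-inhibited libraries. Its members differed, with means in that order of 4060.5, 968.5 and 2880.5 for Cd8a and 1265.8, 1243.8 and 1396.8 for Cd3d. Cd8b1, Cd3e, Trac and Lck were also lower in chronic than in acute libraries, and Cd3g was not called. The summed signal of the B cell markers was 351 to 437, 90.2 to 166 and 85.4 to 227. Cd4 read 383 to 496, 144 to 344 and 101 to 141. Summed signals ran from 90.5 to 227 over the myeloid, 32.0 to 163 over the dendritic cell, 7.87 to 54.2 over the NK cell and 0 to 39 over the erythroid markers. The part of these differences in the results was not tested. In bulk RNA, fewer cells that make a transcript and less of it per cell cannot be told apart. Under MEK inhibition Dusp6, an ERK target gene, fell against chronic libraries (-3.52 ± 0.13, adjusted p = 5.2e-12). Here and below, brackets hold a log2 fold change of log2(scaled signal + 5) ± its standard error from limma, with 3 libraries in each group, and the p-value adjusted by Benjamini and Hochberg's method over all genes.

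Chronic stimulation came with higher nascent signal in most of the glycolytic enzyme and hypoxia-response genes tested, while neither glucose transporter gene was called. Against acute libraries, 22 of the 39 genes tested rose and 4 fell (limma, adjusted p under 0.05), where 18% of all 15942 genes tested rose and 15.9% fell (33.9% in all). The rises ran from 1.25-fold for Hk1 to 4.86-fold for Slc16a3, leaving aside P4ha2, which is counted among the 22 but passed the filter only through its chronic libraries. The 4 that fell were Pfkp, Pdk1, Egln3 and Kdm3a. All 3 chronic libraries lay above all 3 acute libraries for 24 of the 39, P4ha2 among them, and below them for 4. This held for 22.4% and 21.9% of all genes. With the signal scaled to library totals, 12 of the 39 rose and 10 fell: Hk1, Hk2, Pgam1, Eno3, Ldha, Hif1a, Bnip3, P4ha1, Ankrd37 and Ak4 lost their calls, and Slc2a1, Slc2a3, Pfkfb3, Arnt, Egln1 and Bnip3l were called lower. With the deposited values unscaled, 13 rose and 10 fell, and with totals that leave out the ribosomal RNA-like locus, 18 rose and 4 fell.

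With MEK inhibition most of the genes called were lower than in chronic libraries. Against chronic libraries, 20 of the 39 fell and 2, Pfkp and Kdm3a, rose, where 7.65% of all genes fell and 9.93% rose (17.6% in all). All 3 MEK-inhibited libraries lay below all 3 chronic libraries for 22 of the 39 and above them for 4, which held for 14.4% and 17.8% of all genes. P4ha2, which passed the filter only through its chronic libraries, is counted in the 20 and in the 22. Scaled to library totals, 15 fell and 3 rose, with the calls of Slc2a1, Hk2, Ldha, Vegfa and Ero1l lost and Ddit4 called higher. Against acute libraries, the MEK-inhibited libraries had 8 of the 39 higher and 6 lower, where 14.4% of all genes were higher and 11.5% lower (25.8% in all), and 4 higher and 14 lower when scaled to totals. In that scaling the calls of Hk2, Aldoa, Tpi1 and Slc16a3 were lost, and Slc2a1, Slc2a3, Eno1, Ldha, Bnip3, Ero1l, P4ha1 and Ak4 were called lower. The libraries did not overlap for 14 genes higher and 9 lower than acute, against 22.4% and 19.6% of all genes. These 3 comparisons share libraries, so each is given by its own values.

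The heat map gives every gene tested in every library.

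**Figure D1:**
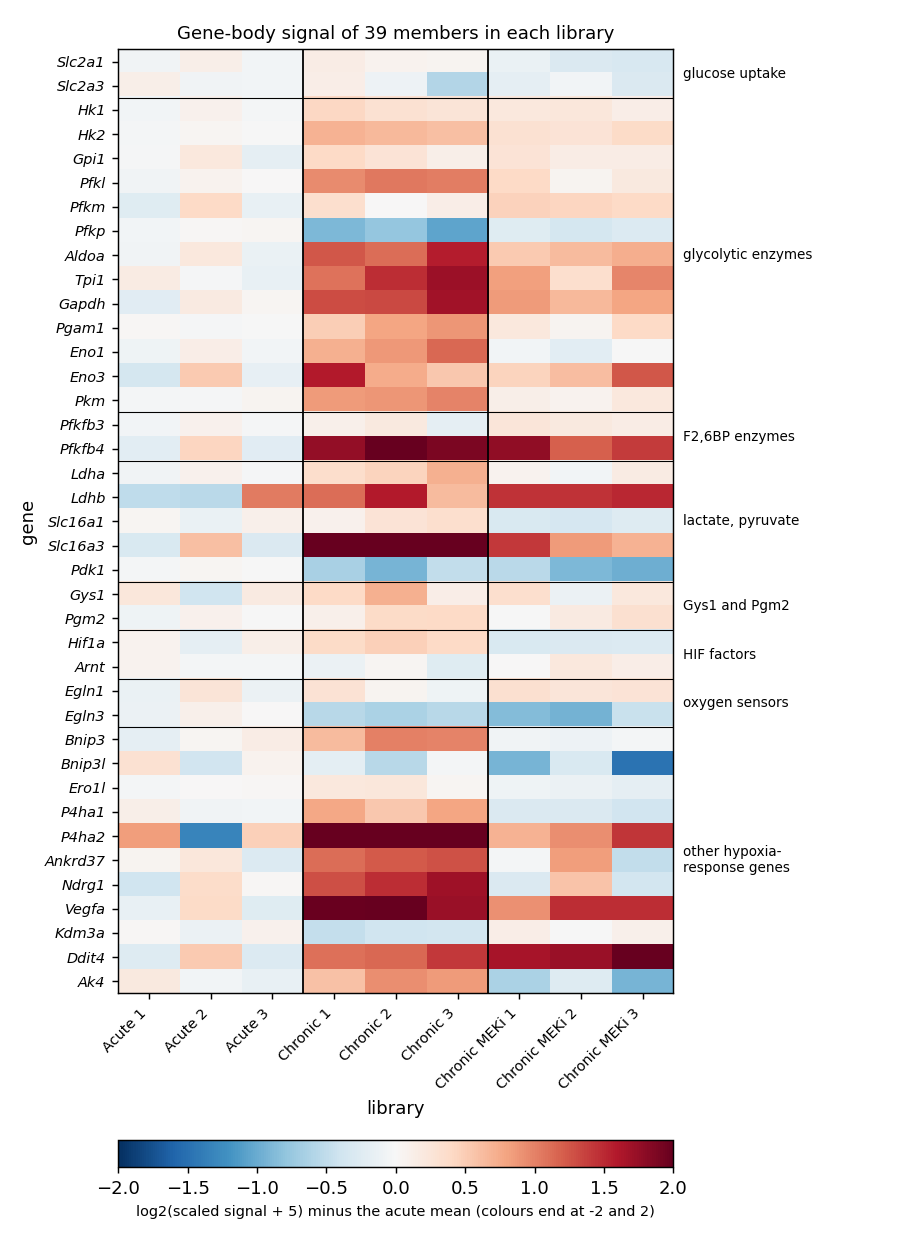
Gene-body signal of the 39 genes tested, as log2(scaled signal + 5) minus the mean of the 3 acute libraries (colour), for each gene (rows, grouped by role) in each of the 9 libraries (columns). Red fills most rows of the chronic columns and pales in the MEK-inhibited columns, while Pfkp, Pdk1, Egln3 and Kdm3a are blue in the chronic columns.

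Both sides had medians above 0 in chronic libraries, and with MEK inhibition that of the hypoxia side came to near 0 against acute libraries. In chronic against acute libraries the median log2 fold change was 0.58 over 24 genes of the glycolysis side (13 rose, 2 fell) and 0.70 over 15 of the hypoxia side (9 rose, 2 fell), against -0.02 over all genes. In MEK-inhibited against chronic libraries it was -0.33 (1 rose, 12 fell) and -0.70 (1 rose, 8 fell), against 0.04 over all genes. Set against acute libraries, the MEK-inhibited libraries had medians of 0.19 (6 higher, 3 lower) and -0.03 (2 higher, 3 lower), against 0.00 over all genes. Taken library by library against the acute mean, the median of the glycolysis side was 0.45, 0.68 and 0.57 in the chronic and 0.26, 0.17 and 0.21 in the MEK-inhibited libraries. For the hypoxia side these medians were 0.58, 0.54 and 0.78 in the chronic and -0.08, -0.01 and -0.18 in the MEK-inhibited libraries. The counts and medians of the hypoxia side include P4ha2, which passed the filter only through its chronic libraries. Whether the sides differ was not tested. Scaling to library totals lowers the medians against acute to 0.09 and 0.21 in chronic libraries, and to -0.19 and -0.39 in MEK-inhibited ones.

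**Figure D2:**
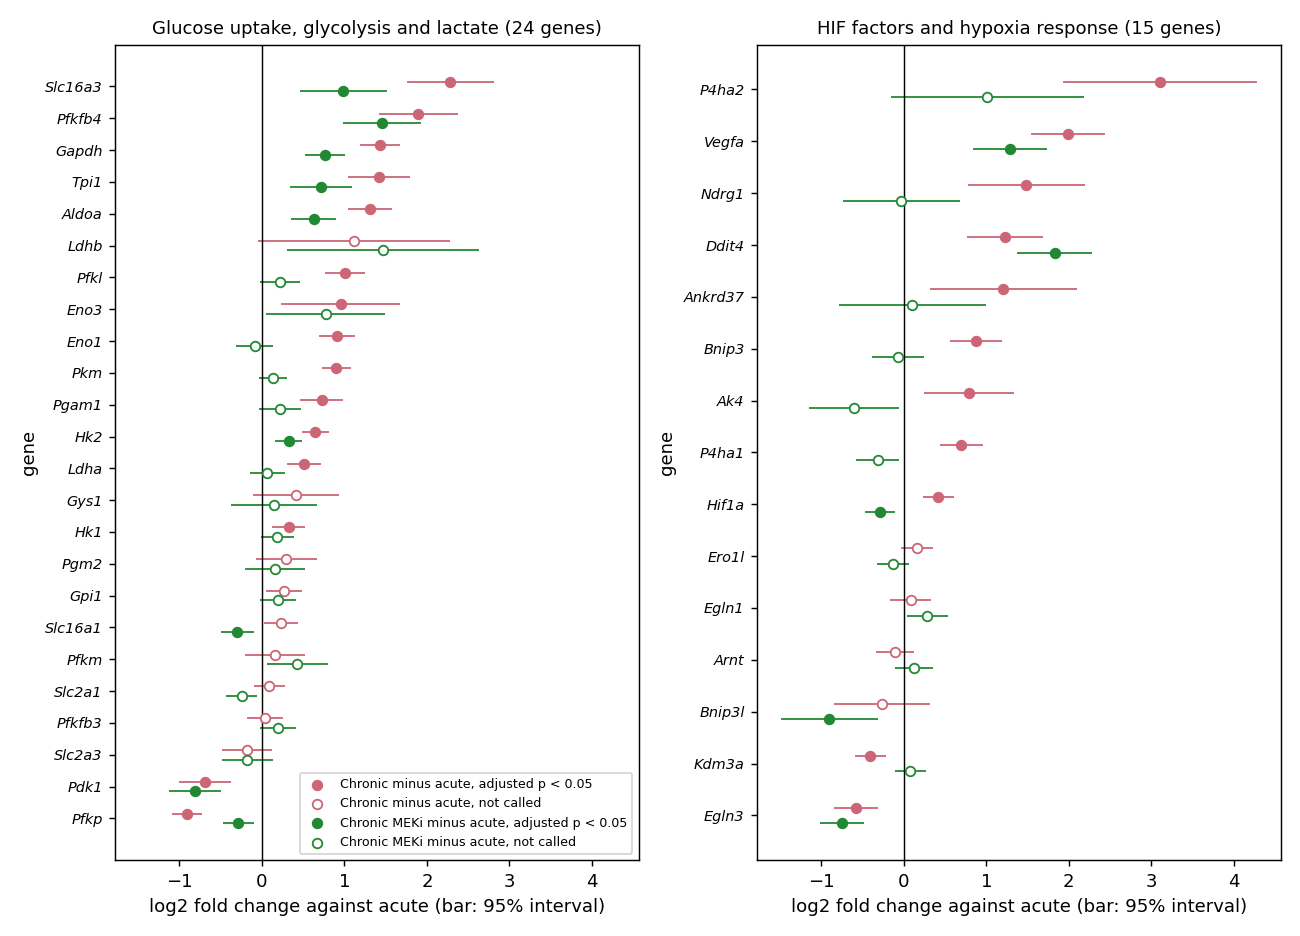
Log2 fold change against acute (horizontal axis, bars are 95% intervals from limma) for the 24 genes of the glycolysis side (left) and the 15 of the hypoxia side (right), ordered by the chronic value, with chronic in red and MEK-inhibited in green, and filled points for adjusted p under 0.05. The green points lie left of the red ones for most genes, near 0 for Eno1, Bnip3 and Ndrg1 and well above 0 for Pfkfb4, Vegfa and Ddit4.

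HIF binds a short core that reads ACGTG. A variant of the core has G in first place and reads GCGTG. MYC and related factors bind the E-box, which reads CACGTG, so the promoters of genes that moved together and of genes that moved the other way are shown side by side. RefSeq windows of mouse build GRCm38.p6, from 250 bases before to 50 after a start site, matched 37 of the 40 genes. Both strands were searched, and each E-box also holds the core with A first on both strands. A window with either core belonged to 29 of the 37 genes (78.4%) and to 43.8% of all 32851 windows, and an E-box to 5 of 37 (13.5%) and 7.15% of all. The genes' windows were richer in G and C, with a median of 64.3% and 21 CG dinucleotides against 52.7% and 7 over all windows, and the part of this in the share was not tested. The share with either core was 16 of 21 among genes that rose in chronic libraries, 4 of 4 among those that fell and 9 of 11 among those not called. P4ha2, among the 16, passed the filter only through its chronic libraries.

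The 8 stretches below, 5′ to 3′ along each gene, overlap none of the gene's annotated exons, and capitals mark both cores and the E-box on either strand, so that a core on the other strand appears as its reverse complement. The first 6 belong to genes that rose in chronic libraries (Slc16a3 chr11:120948917-120949052, plus strand; Ldha chr7:46845654-46845803, plus strand; Pfkl chr10:78009808-78009957, minus strand; P4ha2 chr11:54100774-54100923, plus strand; Bnip3 chr7:138909520-138909656, minus strand; Ak4 chr4:101419139-101419276, plus strand) and the last 2 to genes that fell (Pfkp chr13:6648778-6648921, minus strand; Pdk1 chr2:71873074-71873221, plus strand). P4ha2 is placed among the genes that rose with the filter's limit given above. The stretches of Slc16a3, Ldha, P4ha2 and Pfkl lie within the span of the gene, downstream of another annotated start.
Slc16a3: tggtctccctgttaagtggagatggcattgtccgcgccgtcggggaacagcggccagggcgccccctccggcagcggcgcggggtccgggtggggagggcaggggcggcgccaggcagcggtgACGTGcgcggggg
Ldha: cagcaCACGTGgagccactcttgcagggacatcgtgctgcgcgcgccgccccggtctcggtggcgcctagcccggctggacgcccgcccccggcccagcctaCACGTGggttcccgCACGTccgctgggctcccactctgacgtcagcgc
Pfkl: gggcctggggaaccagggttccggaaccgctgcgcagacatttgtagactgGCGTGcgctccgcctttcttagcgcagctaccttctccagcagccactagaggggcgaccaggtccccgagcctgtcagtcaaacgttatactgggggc
P4ha2: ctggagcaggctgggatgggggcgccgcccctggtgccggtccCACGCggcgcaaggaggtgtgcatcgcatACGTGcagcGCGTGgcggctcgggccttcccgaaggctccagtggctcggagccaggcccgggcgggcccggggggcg
Bnip3: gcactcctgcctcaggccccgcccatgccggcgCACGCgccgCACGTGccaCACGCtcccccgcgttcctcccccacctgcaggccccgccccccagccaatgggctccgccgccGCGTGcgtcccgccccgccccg
Ak4: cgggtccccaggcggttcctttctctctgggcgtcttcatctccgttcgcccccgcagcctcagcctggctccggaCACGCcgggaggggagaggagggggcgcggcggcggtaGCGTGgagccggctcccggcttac
Pfkp: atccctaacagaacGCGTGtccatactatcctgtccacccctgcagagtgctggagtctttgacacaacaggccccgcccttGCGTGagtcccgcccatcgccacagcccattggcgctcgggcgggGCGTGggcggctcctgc
Pdk1: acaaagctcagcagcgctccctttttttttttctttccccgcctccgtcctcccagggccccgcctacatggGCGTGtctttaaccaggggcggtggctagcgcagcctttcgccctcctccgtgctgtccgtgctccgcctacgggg

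Ldha and Bnip3 each hold an E-box, Pfkl holds a single core with G first, and P4ha2 has 3 cores. Pfkp, which fell, has the core with G first at 3 places in its stretch and Pdk1, which also fell, at 1 place. The windows of Hk1, Aldoa, Tpi1, Pkm and Vegfa, which all rose, hold neither core. A match is only a match of letters, and the RefSeq start sites of Hif1a, Ankrd37 and Gapdh lie 6492, 5857 and 694 bases from the start of the row used for their signal.

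**Figure D3:**
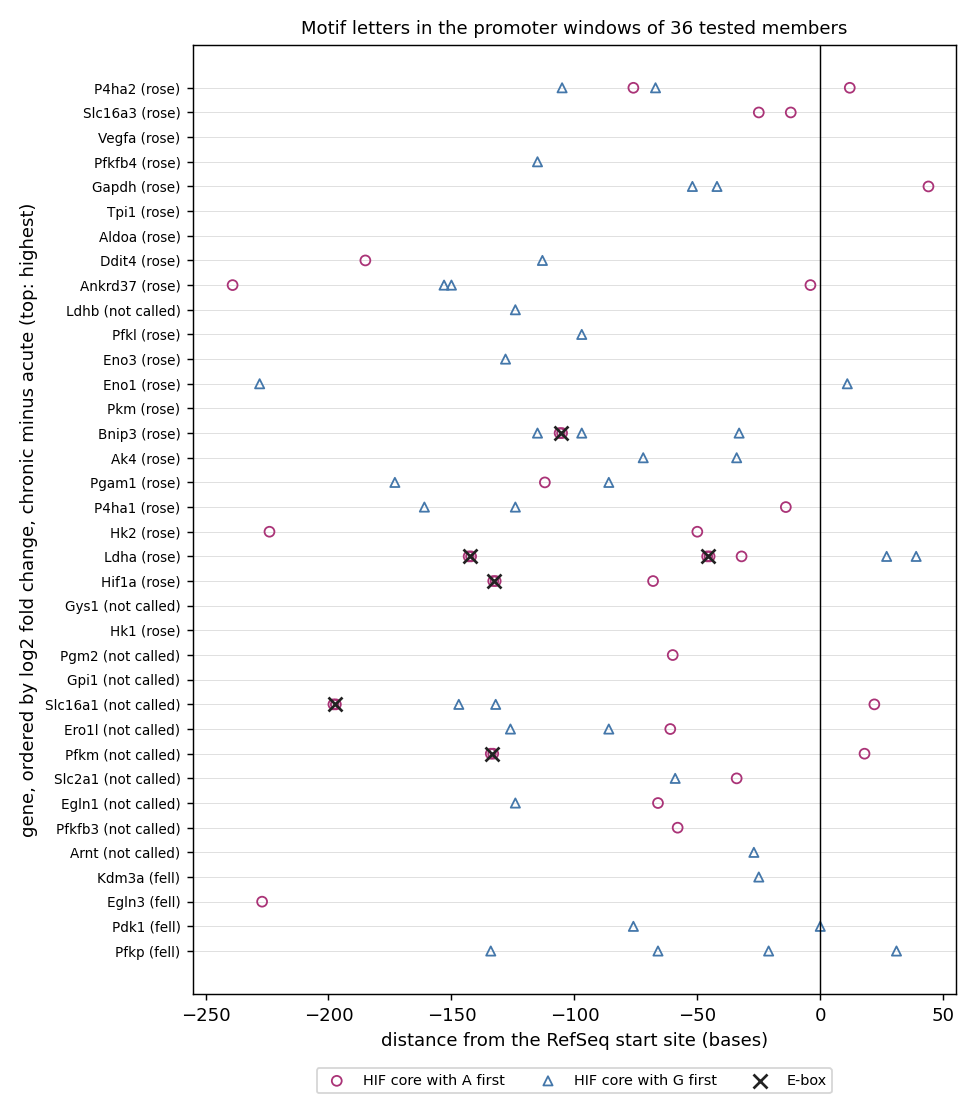
Places of the HIF core with A first (circles), with G first (triangles) and of the E-box (crosses) in the promoter windows of 36 genes tested, by distance from the RefSeq start site in bases (horizontal axis) and ordered from the highest log2 fold change in chronic against acute libraries (top) to the lowest (bottom). Motifs stand at the top and at the bottom of the order, and the rows of Vegfa, Tpi1, Aldoa, Pkm, Hk1, Gpi1 and Gys1 are empty.

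Glucose enters T cells through the transporters encoded by Slc2a1 (GLUT1) and Slc2a3 (GLUT3), and neither was called between chronic and acute libraries. Slc2a1 (chr4:119108711-119137983) read 5434, 6219 and 5514 in the acute, 6345, 5987 and 5912 in the chronic and 5226, 4661 and 4592 in the MEK-inhibited libraries. Its chronic and acute libraries overlapped (log2 fold change 0.09 ± 0.09, adjusted p = 0.47), and all 3 MEK-inhibited libraries lay below both. The fall from chronic libraries was 1.26-fold (-0.33 ± 0.09, adjusted p = 0.014), and the call was lost without MEK-inhibited library 2 (adjusted p = 0.056) or 3 (adjusted p = 0.074). Scaled to library totals, its value in chronic against acute libraries turned to -0.40 (adjusted p = 0.015). Slc2a3 averaged 2677 in acute, 2401 in chronic and 2369.5 in MEK-inhibited libraries, with overlapping groups, and the row of its longest annotated transcript gave a fall from chronic to MEK-inhibited libraries (-0.66, adjusted p = 0.0023).

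Of the 13 glycolytic enzyme genes tested, 10 rose in chronic libraries, 1 fell and 2, Gpi1 and Pfkm, were not called, with a median log2 fold change of 0.90. With MEK inhibition 8 of the 13 fell and 1 rose against chronic libraries (median -0.50), and 4 were higher and 1 lower than acute (median 0.22). Hexokinase traps glucose in the cell as glucose 6-phosphate. Hk2 (chr6:82725025-82774454), its inducible form, read 8687, 9212 and 8872 in the acute, 14393, 13979.9 and 13517 in the chronic and 11064, 10833 and 11616 in the MEK-inhibited libraries. The groups did not overlap, and the MEK-inhibited libraries lay between the others. Hk2 rose 1.56-fold in chronic libraries (0.65 ± 0.08, adjusted p = 3.6e-06), fell from there 1.25-fold with MEK inhibition (-0.32 ± 0.08, adjusted p = 0.0069) and stayed above acute (0.32 ± 0.08, adjusted p = 0.0047). Without acute library 1 the last call was lost (adjusted p = 0.072), and scaled to library totals none of the 3 remained, with 0.16, -0.22 and -0.06. Hk1, the constitutive hexokinase, rose less, by 1.25-fold (0.32 ± 0.09, adjusted p = 0.012), lost its call without acute library 1 (adjusted p = 0.051) and turned to -0.17 when scaled to totals.

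The 3 phosphofructokinase genes, whose products assemble into the enzyme that commits sugar to glycolysis, took different courses. Pfkl (chr10:77986947-78010083), the liver-type subunit, read 1231, 1354 and 1307 in the acute, 2493, 2695 and 2630.3 in the chronic and 1707, 1354 and 1485 in the MEK-inhibited libraries. Every chronic library lay above the rest, while acute and MEK-inhibited libraries overlapped. It rose 2.0-fold in chronic libraries (1.00 ± 0.11, adjusted p = 1.7e-06) and fell 1.72-fold with MEK inhibition (-0.79 ± 0.11, adjusted p = 6.4e-05). Pfkp (chr13:6579768-6648777), the platelet-type subunit, read 9584, 10076 and 10179 in the acute, 5314, 5791 and 4805 in the chronic and 8403, 7814 and 8244 in the MEK-inhibited libraries. In contrast to Pfkl, every chronic library lay below the rest, and no groups overlapped. Pfkp fell 1.88-fold in chronic libraries (-0.91 ± 0.09, adjusted p = 2.1e-07) and rose 1.54-fold from there with MEK inhibition (0.62 ± 0.09, adjusted p = 4.5e-05). It remained 1.22-fold below acute (-0.29 ± 0.09, adjusted p = 0.022), a call lost without MEK-inhibited library 2 (adjusted p = 0.073) or 3 (adjusted p = 0.058). Pfkm, the muscle-type subunit, averaged 671 in acute, 739 in chronic and 887 in MEK-inhibited libraries and was not called in any of the 3 comparisons. Per kilobase of transcribed span, Pfkp had the highest mean signal of the 3 in acute libraries (144, against 56.8 for Pfkl and 16.8 for Pfkm), and Pfkl in chronic libraries (114, against 76.9 and 18.5). Pitrm1, on the other strand over Pfkp, had log2 fold changes of -0.21 in chronic against acute and -0.26 in MEK-inhibited against chronic libraries.

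Aldolase, triose phosphate isomerase and glyceraldehyde 3-phosphate dehydrogenase split the sugar and begin its oxidation, and their genes rose most among the enzymes. Aldoa (chr7:126795234-126800751) read 1400.4, 1718 and 1341 in the acute, 3498, 3223 and 4403 in the chronic and 2126, 2286 and 2447 in the MEK-inhibited libraries. Tpi1 (chr6:124810586-124814296) read 955, 836 and 771 in the acute, 1803, 2372 and 2807 in the chronic and 1508, 1073 and 1684 in the MEK-inhibited libraries. Gapdh (chr6:125161715-125166467) read 4517, 5969 and 5391 in the acute, 12985, 13145 and 16795 in the chronic and 9511, 8273 and 9117 in the MEK-inhibited libraries. For all 3 genes the groups stood apart in the order acute, MEK-inhibited, chronic, with no overlap. The rises in chronic libraries were 2.48-fold for Aldoa (1.31 ± 0.13, adjusted p = 2.3e-07), 2.68-fold for Tpi1 (1.42 ± 0.18, adjusted p = 7.3e-06) and 2.7-fold for Gapdh (1.43 ± 0.11, adjusted p = 2.1e-08). With MEK inhibition Aldoa fell 1.61-fold, Tpi1 1.64-fold and Gapdh 1.59-fold from chronic levels, with adjusted p of 0.00074, 0.0089 and 0.00038. They stayed 1.54-fold, 1.64-fold and 1.70-fold above acute, with adjusted p of 0.0012, 0.0063 and 6.4e-05. The last call for Tpi1 was lost without acute library 3 (adjusted p = 0.052), and those for Aldoa and Tpi1 when scaled to totals (adjusted p = 0.17 and 0.12). Gapdh had the highest signal per kilobase of the 40 genes in acute libraries (1147) and in chronic libraries (3101). These and other glycolytic enzyme genes, such as Eno1, Pgam1 and Ldha, have near-identical processed copies in the genome, so their signal is uncertain where reads could be shared. Of the 40 genes, 20 overlap another annotated gene. Fam57b, on the other strand over Aldoa, had log2 fold changes of 1.17 in chronic against acute and -0.60 in MEK-inhibited against chronic libraries, and Iffo1, on the other strand over Gapdh, 0.42 and 0.31.

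The payoff steps downstream, phosphoglycerate mutase, enolase and pyruvate kinase, rose in chronic libraries and fell with MEK inhibition. Pgam1 (chr19:41911923-41918660) read 1598, 1548 and 1568 in the acute, 2216, 2708 and 2916 in the chronic and 1816, 1634 and 2066 in the MEK-inhibited libraries. Eno1 (chr4:150236721-150248879), the main enolase of most cells, read 6857, 7928 and 7016 in the acute, 11935, 13191 and 16049.6 in the chronic and 6985, 6295 and 7239.7 in the MEK-inhibited libraries. Pkm (chr9:59656368-59679375), pyruvate kinase, read 7282, 7389 and 7827 in the acute, 13467, 13755 and 14884 in the chronic and 8171, 7898 and 8634 in the MEK-inhibited libraries. Chronic libraries lay above all others for each of the 3 genes, the MEK-inhibited libraries of Pgam1 and Pkm lay just above all acute ones, and those of Eno1 overlapped acute. Pgam1 rose 1.65-fold (0.72 ± 0.12, adjusted p = 0.00014), Eno1 1.88-fold (0.91 ± 0.11, adjusted p = 2.2e-06) and Pkm 1.87-fold (0.90 ± 0.08, adjusted p = 9.3e-08). With MEK inhibition Pgam1 fell 1.42-fold (-0.50 ± 0.12, adjusted p = 0.0068), Eno1 1.99-fold (-1.0 ± 0.11, adjusted p = 1.7e-06) and Pkm 1.70-fold (-0.77 ± 0.08, adjusted p = 1.8e-06). The log2 differences between MEK-inhibited and acute libraries had 95% intervals of -0.04 to 0.48 for Pgam1, -0.31 to 0.14 for Eno1 and -0.04 to 0.31 for Pkm, and none was called. Gm49759, which overlaps Pkm on the same strand, had log2 fold changes of 0.98 in chronic against acute and -0.82 in MEK-inhibited against chronic libraries. Eno3, the muscle enolase, was weak, at 98.0, 185 and 113 in the acute, 391, 215 and 187 in the chronic and 175, 198 and 308 in the MEK-inhibited libraries. Its rise in chronic libraries (0.95 ± 0.34, adjusted p = 0.038) was lost without any of 4 libraries, with adjusted p of 0.15 without acute library 1, 0.11 without acute library 3, 0.19 without chronic library 1 and 0.054 without chronic library 2. Gpi1, glucose 6-phosphate isomerase, averaged 5779 in acute, 6940.2 in chronic and 6578 in MEK-inhibited libraries, and missed the threshold in chronic against acute libraries (0.27 ± 0.10, adjusted p = 0.057).

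**Figure D4:**
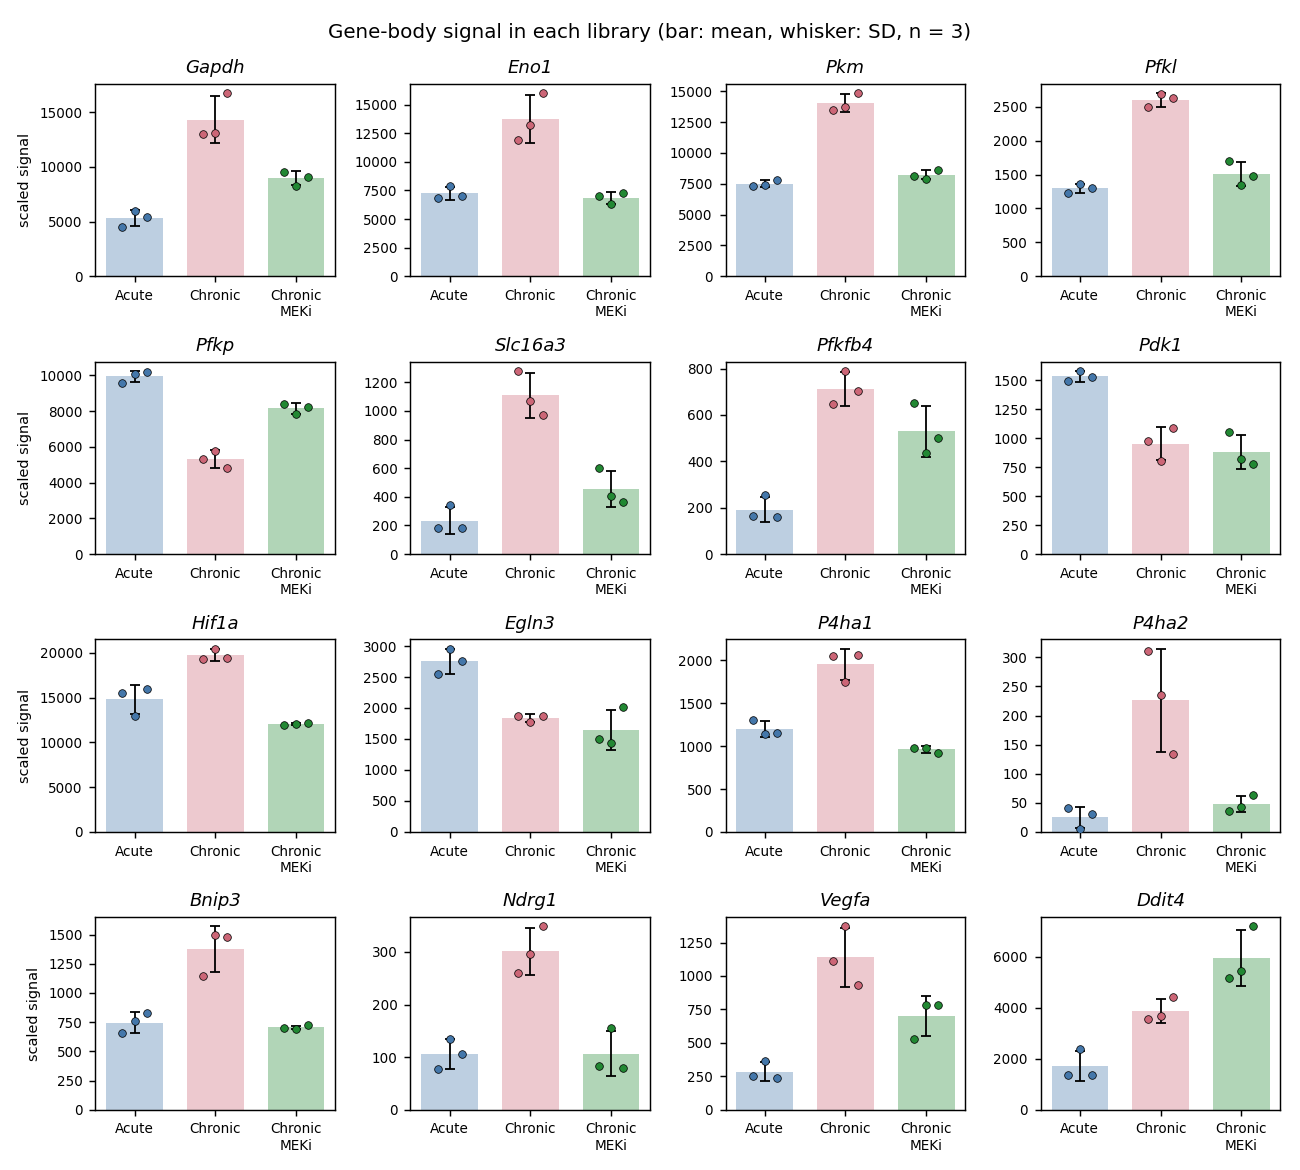
Scaled gene-body signal (vertical axes, linear from 0) of 16 genes in each library (points), with the mean of 3 libraries (bar) and its SD (whisker), for acute (blue), chronic (red) and MEK-inhibited (green) cells. Eno1, Pkm, Bnip3 and Ndrg1 peak in chronic libraries and are near the acute bar with MEK inhibition, Pfkp dips, Ddit4 climbs through all 3 groups, and Pdk1 and Egln3 are low in both chronic groups.

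Fructose 2,6-bisphosphate, made and removed by the PFKFB enzymes, is the strongest activator of phosphofructokinase. Pfkfb4 (chr9:108991778-109032228) read 162, 254 and 159.7 in the acute, 646, 791 and 704 in the chronic and 650.4, 435 and 502 in the MEK-inhibited libraries. Acute libraries lay below all others, and chronic and MEK-inhibited libraries overlapped. Pfkfb4 rose 3.72-fold in chronic libraries (1.90 ± 0.23, adjusted p = 2.9e-06) and was 2.74-fold above acute with MEK inhibition (1.45 ± 0.23, adjusted p = 8.9e-05). The difference between its 2 chronic groups was not called (-0.44 ± 0.23, adjusted p = 0.21). Pfkfb3, the isoform with the strongest kinase activity, averaged 3324 in acute, 3426 in chronic and 3804 in MEK-inhibited libraries and was called in none of the comparisons, though scaled to totals it turned to -0.45 in chronic against acute libraries (adjusted p = 0.011).

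Among lactate transporter and lactate dehydrogenase genes, Slc16a3 and Ldha rose in chronic against acute libraries, while Slc16a1 and Ldhb were not called in that comparison. Slc16a3 (chr11:120948480-120960868), which encodes MCT4, the lactate exporter of strongly glycolytic cells, read 179, 341 and 181 in the acute, 1282, 1073 and 975 in the chronic and 599, 407 and 365 in the MEK-inhibited libraries. The groups did not overlap, and chronic libraries were highest. It rose 4.86-fold in chronic libraries (2.28 ± 0.25, adjusted p = 1.1e-06), the largest rise on the glycolysis side, and fell 2.45-fold with MEK inhibition (-1.29 ± 0.25, adjusted p = 0.0010). It stayed 1.98-fold above acute (0.99 ± 0.25, adjusted p = 0.0066), a call lost without MEK-inhibited library 1 (adjusted p = 0.068). Slc16a1, which encodes MCT1, averaged 4289 in acute, 5038 in chronic and 3478 in MEK-inhibited libraries. It was not called in chronic libraries (0.23 ± 0.10, adjusted p = 0.073) and fell 1.44-fold from there with MEK inhibition (-0.53 ± 0.10, adjusted p = 0.00058), to below acute (-0.30 ± 0.10, adjusted p = 0.028). That last call was lost without acute library 3 (adjusted p = 0.052), MEK-inhibited library 2 (adjusted p = 0.076) or 3 (adjusted p = 0.056).

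Ldha, the lactate dehydrogenase subunit that favours lactate and whose stretch holds an E-box at 2 places, averaged 6602 in acute, 9432 in chronic and 6907 in MEK-inhibited libraries. It rose 1.42-fold (0.51 ± 0.10, adjusted p = 0.00059) and fell 1.36-fold with MEK inhibition (-0.44 ± 0.10, adjusted p = 0.0037), and neither was called when scaled to totals (adjusted p = 0.92 and 0.059). Ldhb, the other subunit, was weak, at 13.8 to 76.2, and was not called. Pdk1 (chr2:71873224-71903858), the kinase that keeps pyruvate out of mitochondria and is a textbook HIF target, read 1495, 1584 and 1526 in the acute, 975, 801 and 1087 in the chronic and 1053, 819 and 775 in the MEK-inhibited libraries. All 6 libraries of the 2 chronic groups lay below all acute libraries, and the 2 chronic groups overlapped. Pdk1 fell 1.62-fold in chronic libraries (-0.69 ± 0.15, adjusted p = 0.0014) and was 1.75-fold below acute with MEK inhibition (-0.81 ± 0.15, adjusted p = 0.00052). Gys1, glycogen synthase, averaged 280.4 in acute, 373 in chronic and 307 in MEK-inhibited libraries, and Pgm2, of the phosphoglucomutase family, 486 in acute, 599 in chronic and 545 in MEK-inhibited libraries, with no call for either.

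Among the HIF factors, Hif1a moved and Arnt was not called. Hif1a (chr12:73901375-73947530) read 15514, 12971 and 15969 in the acute, 19294, 20489 and 19393 in the chronic and 11979, 12094 and 12172 in the MEK-inhibited libraries. Chronic libraries lay above all others and MEK-inhibited libraries below all others. It rose 1.34-fold in chronic libraries (0.42 ± 0.09, adjusted p = 0.0011) and fell 1.63-fold with MEK inhibition (-0.71 ± 0.09, adjusted p = 1.0e-05), to 1.22-fold below acute (-0.29 ± 0.09, adjusted p = 0.021). The last call was lost without MEK-inhibited library 2 (adjusted p = 0.051) or 3 (adjusted p = 0.061), and scaled to totals the chronic value turned to -0.07. Gm15283, annotated on the other strand over Hif1a, had nearly the same values (means of 15368, 20418 and 12572), and reads of such a pair cannot be told apart without knowing whether strand was used. Arnt averaged 2066 in acute, 1929 in chronic and 2248 in MEK-inhibited libraries, with a 95% interval of -0.33 to 0.13 for its log2 fold change in chronic against acute libraries.

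Neither oxygen sensor gene was called higher. Egln3 (chr12:54178981-54203860), a prolyl hydroxylase that is itself a HIF target, read 2541, 2955 and 2761 in the acute, 1869, 1769 and 1873 in the chronic and 1498, 1427 and 2015 in the MEK-inhibited libraries. As for Pdk1, all libraries of the 2 chronic groups lay below acute and overlapped each other. Egln3 fell 1.49-fold in chronic libraries (-0.58 ± 0.13, adjusted p = 0.0015) and was 1.69-fold below acute with MEK inhibition (-0.75 ± 0.13, adjusted p = 0.00019). Egln1, the main oxygen sensor of most cells, averaged 3402 in acute, 3595 in chronic and 4103 in MEK-inhibited libraries and was not called, but scaled to totals it turned to -0.41 in chronic against acute libraries (adjusted p = 0.025).

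Of the other 11 hypoxia-response genes, 8 rose in chronic libraries and 1, Kdm3a, fell, with a median log2 fold change of 0.87. With MEK inhibition 7 fell and 1 rose against chronic libraries (median -0.94), and 2 were higher and 1 lower than acute (median -0.03). The 8, the 7 and the medians include P4ha2, whose limit is given below. P4ha1 and P4ha2 encode subunits of the prolyl 4-hydroxylase that modifies collagen. P4ha1 (chr10:59323296-59373304) read 1306, 1141 and 1158 in the acute, 2053, 1745 and 2068 in the chronic and 984, 981 and 918 in the MEK-inhibited libraries. P4ha2 (chr11:54100095-54131665), whose stretch holds 3 cores, was weak and read 40.3, 5.24 and 30.6 in the acute, 310.0, 236 and 134 in the chronic and 36, 43.3 and 63.5 in the MEK-inhibited libraries. For both genes chronic libraries lay above all others, P4ha1 was lower in all MEK-inhibited than in all acute libraries, and for P4ha2 acute library 2 was far below its neighbours. P4ha1 rose 1.62-fold (0.70 ± 0.12, adjusted p = 0.00021) and fell 2.02-fold with MEK inhibition (-1.02 ± 0.12, adjusted p = 7.4e-06), to a level not called against acute (-0.32 ± 0.12, adjusted p = 0.066). P4ha2 reached the filter's 50 in its 3 chronic libraries and in MEK-inhibited library 3 alone, so it could pass only by being high in chronic libraries, and its difference is a description. Its fitted signal was 8.60-fold higher in chronic than in acute (log2 3.11 ± 0.56) and 4.26-fold lower in MEK-inhibited than in chronic libraries (log2 -2.09 ± 0.56). The counts of genes called include P4ha2 in both comparisons, and its call in the second was lost without chronic library 1 or 2.

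Bnip3 and Bnip3l, related proteins that tag mitochondria for removal, differed. Bnip3 (chr7:138890836-138909519) read 653, 759.8 and 826 in the acute, 1149, 1495 and 1479 in the chronic and 704, 695 and 723 in the MEK-inhibited libraries. Bnip3l (chr14:66985239-67008877) read 573, 354 and 488 in the acute, 404, 313 and 449 in the chronic and 240.3, 373 and 164 in the MEK-inhibited libraries. Bnip3 was higher in every chronic library than in any other, while the groups of Bnip3l overlapped. Bnip3 rose 1.83-fold (0.87 ± 0.15, adjusted p = 0.00017) and fell 1.92-fold with MEK inhibition (-0.94 ± 0.15, adjusted p = 0.00017). Bnip3l was not called in chronic against acute libraries (-0.26 ± 0.28, adjusted p = 0.49) and was 1.87-fold below acute with MEK inhibition (-0.90 ± 0.28, adjusted p = 0.023), a call lost without acute library 1 (adjusted p = 0.081), acute library 3 (adjusted p = 0.053) or MEK-inhibited library 3 (adjusted p = 0.14). Gm45507, on the other strand over Bnip3, had log2 fold changes of 1.28 in chronic against acute and -0.61 in MEK-inhibited against chronic libraries.

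Ndrg1 (chr15:66929318-66969640), a stress-response gene used as a marker of hypoxia, read 77.5, 135 and 106 in the acute, 259, 296 and 348 in the chronic and 84.1, 156 and 79.2 in the MEK-inhibited libraries. Ankrd37 (chr8:45996902-46005707), a direct HIF target, read 57.0, 64.9 and 44.8 in the acute, 125, 135 and 141 in the chronic and 53.7, 102 and 37.5 in the MEK-inhibited libraries. Ak4 (chr4:101419277-101466995), a mitochondrial adenylate kinase, read 255, 215 and 200.4 in the acute, 335, 427 and 406 in the chronic and 142, 186 and 115 in the MEK-inhibited libraries. All 3 genes were highest in the chronic libraries without overlap, and Ak4 alone of them had every MEK-inhibited library below every acute one. Ndrg1 rose 2.80-fold (1.49 ± 0.34, adjusted p = 0.0021) and fell 2.86-fold with MEK inhibition (-1.51 ± 0.34, adjusted p = 0.0037). Ankrd37 rose 2.31-fold (1.21 ± 0.42, adjusted p = 0.035), and its difference between MEK-inhibited and chronic libraries was not called (-1.11 ± 0.42, adjusted p = 0.085). Ak4 rose 1.72-fold (0.79 ± 0.26, adjusted p = 0.025) and fell 2.62-fold with MEK inhibition (-1.39 ± 0.26, adjusted p = 0.00074). The rise of Ankrd37 was lost on leaving out any of 5 of the 6 acute and chronic libraries (adjusted p up to 0.11, without acute library 3) and that of Ak4 on leaving out any of 4, acute libraries 2 and 3 and chronic libraries 2 and 3 (adjusted p up to 0.084, without acute library 3).

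Vegfa and Ddit4 stayed high with MEK inhibition. Vegfa (chr17:46016993-46032369), the vascular growth factor, read 252, 366 and 237 in the acute, 1113, 1370.3 and 933 in the chronic and 529, 786 and 786 in the MEK-inhibited libraries. Ddit4 (chr10:59949669-59951834), which encodes REDD1, an inhibitor of mTORC1, read 1379.9, 2383 and 1367 in the acute, 3559, 3663 and 4428 in the chronic and 5166, 5460.3 and 7195 in the MEK-inhibited libraries. The 3 groups stood apart for both genes, with MEK-inhibited libraries between the others for Vegfa and above them for Ddit4. Vegfa rose 3.96-fold (1.99 ± 0.21, adjusted p = 8.5e-07) and was 2.44-fold above acute with MEK inhibition (1.28 ± 0.21, adjusted p = 0.00018). Its fall from chronic to MEK-inhibited libraries (-0.70 ± 0.21, adjusted p = 0.029) was lost without chronic library 1 (adjusted p = 0.062), chronic library 2 (adjusted p = 0.15) or MEK-inhibited library 1 (adjusted p = 0.12). Ddit4 rose 2.34-fold in chronic libraries (1.23 ± 0.21, adjusted p = 0.00076) and was 3.55-fold above acute with MEK inhibition (1.83 ± 0.21, adjusted p = 5.3e-05). Per kilobase Ddit4 had the highest signal of the 40 genes in MEK-inhibited libraries, at 2743, against 1943 for Gapdh. The further difference between MEK-inhibited and chronic libraries missed the threshold (0.60 ± 0.21, adjusted p = 0.072), and passed it without acute library 2 (adjusted p = 0.0049) or when scaled to totals (adjusted p = 0.0019).

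Kdm3a, a histone H3 lysine 9 demethylase induced by hypoxia in many cells, averaged 6393 in acute, 4812 in chronic and 6739 in MEK-inhibited libraries. Like Pfkp, it fell in chronic libraries (1.33-fold, -0.41 ± 0.09, adjusted p = 0.0014) and rose from there with MEK inhibition (1.40-fold, 0.48 ± 0.09, adjusted p = 0.00059). Ero1l, an oxidase of the endoplasmic reticulum, averaged 3212 in acute, 3606 in chronic and 2939 in MEK-inhibited libraries. It was not called in chronic against acute libraries (0.16 ± 0.09, adjusted p = 0.19) and fell 1.22-fold with MEK inhibition (-0.29 ± 0.09, adjusted p = 0.035), a call lost without chronic library 1 (adjusted p = 0.090) or 2 (adjusted p = 0.11) or MEK-inhibited library 2 (adjusted p = 0.074) or 3 (adjusted p = 0.12).

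RNA polymerase II often pauses shortly after starting, and the second deposited table, read here as the pause region, gives the signal there. Of the 40 genes, 22 had enough of it to be tested among 7678. In chronic against acute libraries 5 rose and 0 fell, where 5.37% of all genes rose and 5.35% fell (10.7% in all), and 12 had an unadjusted p under 0.05. The libraries did not overlap for 9 higher and 2 lower, against 12.6% and 11.7% of all genes. Pfkl read 46.8, 97.3 and 10.9 in the acute, 109, 146 and 137 in the chronic and 80.7, 65.0 and 119.7 in the MEK-inhibited libraries. Ldha read 269, 379 and 336 in the acute, 489, 689 and 562 in the chronic and 436, 349.8 and 453 in the MEK-inhibited libraries. Ddit4 read 1114, 1858 and 1487 in the acute, 2479, 2815 and 3511 in the chronic and 3704, 4131 and 4841 in the MEK-inhibited libraries. Chronic libraries lay above all acute libraries for each of these 3 genes. The log2 fold changes were 1.62 ± 0.47, adjusted p = 0.025 for Pfkl, 0.81 ± 0.21, adjusted p = 0.010 for Ldha and 0.99 ± 0.18, adjusted p = 0.00035 for Ddit4. P4ha1 rose too (1.22 ± 0.40, adjusted p = 0.049), and so did Ero1l (1.04 ± 0.27, adjusted p = 0.011), whose gene body was not called. Arnt had the lowest log2 fold change of the 22, with pause-region signal of 73.3, 65.3 and 75.1 in the acute, 37.6, 19.8 and 47.3 in the chronic and 76.7, 115 and 55.5 in the MEK-inhibited libraries. Its chronic libraries lay below all others, and neither the difference from acute (-1.0 ± 0.44, adjusted p = 0.16) nor that between MEK-inhibited and chronic libraries (1.14 ± 0.44, adjusted p = 0.20) was called. The count of 5 was 2 without chronic library 2 or chronic library 3 and 3 without acute library 1 or acute library 3, and scaled to totals 0 rose and 3 fell.

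With MEK inhibition no pause region of the 22 was called by limma against chronic libraries, where 3% of all genes were called (1.56% higher and 1.43% lower), although 9 had an unadjusted p under 0.05. The libraries did not overlap for 7 lower and 3 higher, against 10.5% and 9.76% of all genes. Arnt is among the 3, with the filter's limit given above. Against acute libraries 1 was called, where 5.95% of all genes were (3.44% higher and 2.51% lower): Ddit4 (1.53 ± 0.18, adjusted p = 2.6e-06). Relative to the gene body, the pause region was called in no comparison for any of the 22, nor for any of the 7413 genes tested (limma), with 3, 1 and 3 of the 22 at an unadjusted p under 0.05 in the 3 comparisons. This does not show that pausing was unchanged. The plot of pause region against gene body shows how the regions compared.

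**Figure D5:**
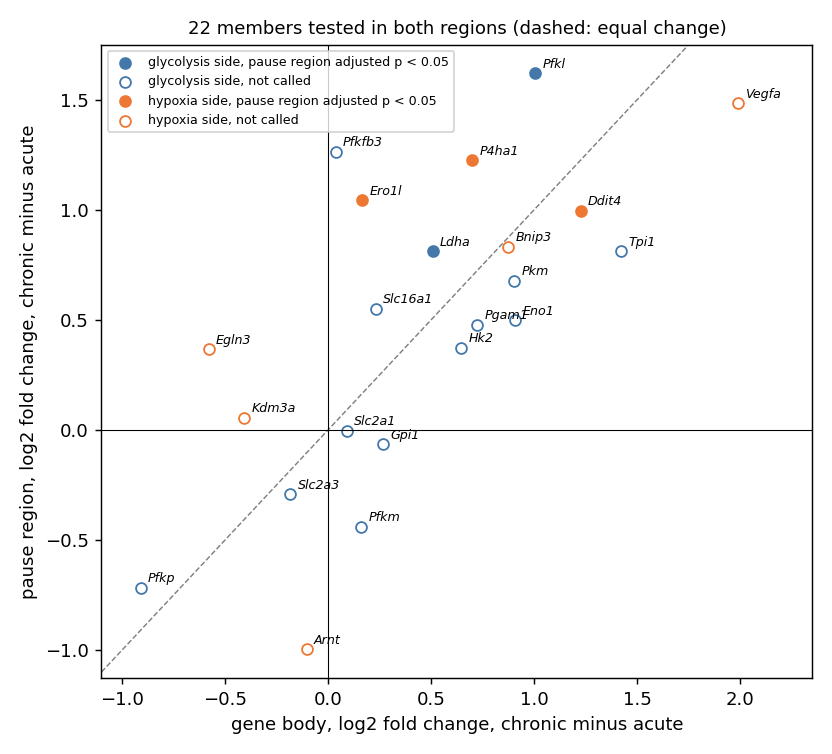
Log2 fold change in chronic against acute libraries in the gene body (horizontal axis) and in the pause region (vertical axis) for the 22 genes tested in both, with blue for the glycolysis and orange for the hypoxia side, filled points for pause regions with adjusted p under 0.05 and a dashed line of equal change. Most points lie in the upper right, and Pfkp, Arnt and Slc2a3 lie in the lower left. Ero1l and Pfkfb3 have pause-region values of 1.04 and 1.26 beside gene-body values of 0.16 and 0.04.

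Other genes of the pathways were taken from 2 lists beyond the 40. Of 45 further genes of glycolysis and glucose use, 34 were tested, and in chronic against acute libraries 11 rose and 3 fell, with a median of 0.17, where 18% of all genes rose and 15.9% fell. Gpd2, the mitochondrial glycerol 3-phosphate dehydrogenase of the glycerol phosphate shuttle, read 2233, 1844 and 2109.7 in the acute, 4642, 5449.7 and 4258 in the chronic and 2015, 2086 and 2142 in the MEK-inhibited libraries. It rose in chronic libraries (1.21 ± 0.11, adjusted p = 9.5e-08) and fell with MEK inhibition (-1.19 ± 0.11, adjusted p = 3.0e-07), with chronic libraries above all others. Pdp2, a phosphatase that turns pyruvate dehydrogenase on, rose too (1.5 ± 0.12, adjusted p = 2.6e-08), as did Slc2a6, a glucose transporter of lysosomes (1.37 ± 0.31, adjusted p = 0.0019). Galm, galactose mutarotase, fell (-1.49 ± 0.28, adjusted p = 0.00046). With MEK inhibition 2 rose and 7 fell against chronic libraries, with a median of -0.10, where 9.93% of all genes rose and 7.65% fell. The largest after Gpd2 were Slc2a9, a urate and sugar transporter, which rose (0.95 ± 0.12, adjusted p = 1.5e-05), and Pdp1, which fell (-0.75 ± 0.19, adjusted p = 0.010). Against acute libraries 9 were higher and 5 lower with MEK inhibition, where 14.4% and 11.5% of all genes were, with Galm among the lower (-1.44 ± 0.28, adjusted p = 0.00094).

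Of 42 further hypoxia-response genes, 39 were tested, and 13 rose and 5 fell in chronic against acute libraries, with a median of 0.24, where 18% of all genes rose and 15.9% fell. Epas1, which encodes HIF-2α, the sister of HIF-1α, read 814, 844 and 693 in the acute, 8445, 9557 and 8034 in the chronic and 4949, 4865 and 4439 in the MEK-inhibited libraries. The 3 groups stood far apart, with acute lowest and chronic highest. Epas1 rose 11.02-fold in chronic libraries (3.46 ± 0.10, adjusted p = 1.2e-13), fell 1.82-fold with MEK inhibition (-0.87 ± 0.10, adjusted p = 7.7e-06) and stayed 6.04-fold above acute (2.60 ± 0.10, adjusted p = 8.7e-12). Ier3, an immediate early gene (3.31 ± 0.31, adjusted p = 8.9e-07), and Plin2, a coat protein of lipid droplets (2.42 ± 0.21, adjusted p = 3.9e-08), also rose. Ccng2, cyclin G2, fell (-1.90 ± 0.32, adjusted p = 0.00016). With MEK inhibition 1 rose and 13 fell against chronic libraries, with a median of -0.22, where 9.93% of all genes rose and 7.65% fell. Among those that fell were Ppp1r3b, a glycogen-targeting subunit of protein phosphatase 1 (-2.27 ± 0.21, adjusted p = 3.3e-07), and Ier3 (-1.79 ± 0.31, adjusted p = 0.00075). Against acute libraries 7 were higher and 8 lower with MEK inhibition, where 14.4% and 11.5% of all genes were, with Epas1 the highest and Kdm5b, a histone H3 lysine 4 demethylase, the lowest of those called (-1.37 ± 0.12, adjusted p = 1.0e-07).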

How the data were processed

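The authors deposited 2 tables of signal per transcript for 9 nascent RNA libraries, read here by their names as gene body and pause region. They are labelled as counts, but each library's signal is whole multiples of a step that is not shown to be a read, so no count model was used. The submitters' processing notes name mm10, FastQC 0.12.0, Trim Galore 0.6.10, STAR 2.7.0a, SAMtools 1.19.2, deepTools and R 4.1.2. The regions, the use of strand and the counting program are not given in the sources used here.

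Of 118482 rows, 117346 matched GENCODE M21 transcripts (GRCm38) with their version and 383 without it, and 753 were left out. Each gene was represented by its row of largest mean signal in the gene body, and all genes used lie on chromosomes 1 to 19, so Pgk1 was not analysed here. Genes entered with a signal of 50 or more in 3 or more libraries, and libraries were scaled with trimmed means of log ratios without weights (30% of ratios and 5% of levels trimmed from each end). One limma model with an intensity trend and robust moderation was fitted to log2(signal + 5) of all 9 libraries (limma 3.58.1, R 4.3.3, Python 3.11.15, pandas 2.3.3), with Benjamini-Hochberg adjustment over all genes and a threshold of 0.05. The depth behind each value is unknown, and the number of libraries limits the precision. Log2 fold changes are on this scale, which understates changes of weak genes, and are given ± limma's standard error with n = 3 libraries in each group. Folds are 2 to their power. The difference of the logs of both regions was tested too, and it is not a direct measure of pausing. Replicate numbers were not used to pair libraries. The procedure was tested on simulated data. These set no difference between groups in the share of the ribosomal RNA-like locus, so the test does not bear on the choice of scaling.

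The genes, roles and lists were chosen with earlier results of these data known. Library values are printed for genes called in at least 1 gene-body comparison with an absolute log2 fold change of at least 0.58 and for the largest called change in each role. The further lists name up to 5 called genes with the largest changes per comparison, given in part. Levels between genes are compared per kilobase of the row's span. Of the 40 genes, 20 overlap another gene. Alternatives were the scaling, the filter, the added constant, the row used, the libraries and a replicate block.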

Additional observations from a re-analysis of the deposited data

How the results depend on the processing

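Scaled to library totals, or left on the deposited scale, the median in chronic against acute libraries was 0.09 or 0.10 on the glycolysis side (reported 0.58) and 0.21 or 0.23 on the hypoxia side (reported 0.70). With totals that leave out the rRNA-like locus these medians were 0.42 and 0.54, and the median gene moved by -0.16. On the hypoxia side a filter of 200 gave 0.41, since fewer genes were tested, and the longest transcript 0.55. MEK-inhibited against chronic libraries gave -0.20 on the glycolysis side with the deposited scale (reported -0.33). MEK-inhibited against acute libraries gave -0.19, -0.15 and 0.03 on the glycolysis side (reported 0.19) and -0.39, -0.36 and -0.19 on the hypoxia side (reported -0.03) with totals, the deposited scale and totals without the locus. Without single libraries the reported -0.03 ranged from -0.21 without acute library 1 to 0.06 without MEK-inhibited library 3, a change of sign.

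Chronic against acute libraries turned direction for Slc2a1 (-0.40 with totals, -0.38 deposited), Hk1 (-0.17, -0.15), Pfkfb3 (-0.45, -0.44), Hif1a (-0.07, -0.06) and Egln1 (-0.41, -0.39). MEK-inhibited against acute libraries turned for Hk2 (-0.06, -0.02) and, with totals, Ldha (-0.32), and MEK-inhibited against chronic libraries for Slc2a3 with the longest transcript (-0.66). Leaving out single libraries, 23 to 26 genes were called in chronic against acute, 19 to 23 in MEK-inhibited against chronic and 10 to 17 in MEK-inhibited against acute libraries. With no filter the last was 9 (reported 14). Pause-region calls in chronic against acute libraries were 3 with totals, 1 with no filter and 2 to 5 without single libraries (reported 5). In MEK-inhibited against chronic libraries they were 1 with totals and 1 with the replicate block (reported 0), and against acute 2 with totals and 1 to 3 without single libraries (3 without acute library 2). Added constants of 0.5 and 20 changed no call of a single gene in the gene body.

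Libraries with the same replicate number did not deviate together (correlations of -0.53 to 0.098), so the number is not taken as a pairing. Libraries of different number and group had correlations of -0.37 to 0.51, the highest between acute library 2 and MEK-inhibited library 1. What such libraries share was not tested. With a replicate block, 27 (23 higher), 22 (2 higher) and 15 (8 higher) of the 39 were called in the 3 gene-body comparisons and 4, 1 and 1 of the 22 in the pause region. The block added Gpi1 in chronic against acute (adjusted p = 0.028, limma) and, between MEK-inhibited and acute libraries, Slc2a1 (adjusted p = 0.047) and removed no gene-body call. The cause of these dependences was not tested, and depth in reads is unknown.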

Other observations

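The annotation gives the symbol Aldoa to a second gene, which read 11.5, 19.0 and 34.0 in the acute, 36.1, 76.2 and 151 in the chronic and 63.3, 69.6 and 101 in the MEK-inhibited libraries. It reached the filter's 50 in no acute library, so its higher level in the other groups is given as a description. The symbol Pgm2 stands here for the gene on chromosome 5, and Pgm1, on chromosome 4, averaged 1604 in acute, 1629 in chronic and 1476 in MEK-inhibited libraries and was not called in any of the 3 comparisons.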
